A study of Caenorhabditis elegans with 24 samples.

Results

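The dod genes (downstream of DAF-16) are a named class of Caenorhabditis elegans genes that respond to DAF-16, the FOXO transcription factor held out of the nucleus by insulin/IGF-1 signalling. When the insulin receptor DAF-2 is impaired, DAF-16 enters the nucleus, and part of the class rises while another part falls. In published work *dod-3* and *dod-6* belong to the genes that rise in *daf-2* mutants and *dod-17* to *dod-24* to those that fall, and several of the latter are intestinal genes that also respond to bacterial infection. The 9 genes of this class described here were selected by symbol, and all 9 were found among the 21982 genes of the table. Of these, 8 reached 10 normalized counts in at least 4 of 24 libraries and were tested with 13150 genes in all. The exception was *dod-20*.

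The study degraded RAGA-1, the Rag GTPase that activates the growth kinase complex mTORC1, with the auxin-inducible degron (AID), in which auxin lets the plant protein TIR1 target a tagged protein for destruction. Wild type animals (N2) were compared with 2 strains that carry a degron and EmGFP on endogenous *raga-1*, allele wbm40. RAGA-1::AID Neuronal (WBM1250) expresses TIR1 from the *rab-3* promoter, active in neurons, through wbmIs83 on chromosome IV, which is also the chromosome of 4 of the dod genes. RAGA-1::AID Somatic (WBM1438) expresses TIR1 with mRuby from the *eft-3* promoter, active across somatic tissues, through ieSi57 on chromosome II, with a Caenorhabditis briggsae unc-119 copy. The wild type carries neither the degron nor TIR1. The study reports a low level of RAGA-1 degradation in RAGA-1::AID Somatic even without auxin, and these animals are the control of the somatic comparison. Each strain was kept on 0.15 mM auxin from day 1 of adulthood or on control plates with the solvent ethanol, and about 400 whole worms were harvested on day 3 for each of 4 libraries per group, 24 in all. Per the methods, the replicates came from separate days and thaws, and the RNA of 2 replicates was extracted at a time.

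The files hold normalized counts, which are gene counts divided by a size factor for each library, and recovered depth was 16982857 to 41671106 reads. limma was fitted to log2 of the normalized count plus 1, and calls were made at 0.01 on p-values adjusted by Benjamini-Hochberg over every gene tested. Fold changes on this scale understate the change of genes with few counts. The replicate numbers 1 and 4 stood apart from 2 and 3 in every group for some genes, and 1.83% of all tested genes kept these libraries apart in 6 of 6 groups. Results are therefore also given within each replicate set and with a term for the sets in the fit, here the set term. That split was seen in the data, and which replicates shared an extraction is not given in the sources used here. The sources also do not say that a replicate number marks the same day in every group, so the main fit has no term for it. Even so, all 8 libraries of RAGA-1::AID Somatic and of wild type correlated best with their own number in the other condition. In RAGA-1::AID Neuronal 7 of 8 did. Leaving this likeness out can make the standard errors of the main fit too large, so a gene not called there may still have changed. A fit with a term for the replicate number, here the replicate block, called more dod genes, and more of all genes, in several comparisons. It is given at the end. The targeted gene *raga-1* had 2673 to 3025 normalized counts in wild type animals without auxin against 1614 to 1747 in RAGA-1::AID Neuronal and 1646 to 1741 in RAGA-1::AID Somatic. AID acts on the protein, so transcript counts do not show the degradation. In somatic AID animals with auxin 21.6% to 25.0% of all counts fell on the 10 most abundant genes, against 13.7% to 18.02% elsewhere.

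Whole worms were lysed, so a lower level of a dod transcript may be a smaller share of a tissue in the RNA or less of the transcript within that tissue. These cannot be told apart. All 9 intestine markers were detected in every group. Per kb of exon, the mean over 24 libraries was 2467 normalized counts for *dod-19* and 2295 for *dod-23*. It was 1279 for *dod-6*, 757 for *dod-3*, 602 for *dod-24* and 505 for *dod-22*. The remaining genes were lower, at 125 per kb for *dod-17*, 38.2 for *dod-21* and 1.86 for *dod-20*. The level of *dod-20* was 0 to 5.19 normalized counts in the 24 libraries and 0 in 3 of them, where 0 reads allows up to 3 reads in a library, so no change in it was detectable at this depth.

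The genes lie in several places of the WBcel235 genome. A stretch of chromosome IV holds *dod-21* (IV:12936738-12937988, plus strand), *dod-24* (IV:12940106-12941354, minus strand), *dod-22* (IV:12965374-12967392, plus strand) and *dod-17* (IV:12976303-12978343, plus strand). The annotated 5′ ends of *dod-21* and *dod-24* are 4.62 kb apart, and those of *dod-22* and *dod-17* are 10.9 kb apart. On chromosome V, *dod-19* (V:411782-414759, minus strand) and *dod-20* (V:422433-424177, plus strand) have 5′ ends 7.67 kb apart, with *irg-8*, an infection response gene, between them. The others stand alone, with *dod-3* at V:2730622-2731098 (minus strand), *dod-6* at III:10197716-10198352 (plus strand) and *dod-23* at II:8398161-8399164 (minus strand). None of the 9 overlaps another annotated gene in the Ensembl annotation. The proteins encoded by *dod-17*, *dod-22* and *dod-24* are of the CUB-like family, a group of secreted proteins often induced by infection in the intestine, and reads could be split between related genes, which was not tested.

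**Figure D1:**
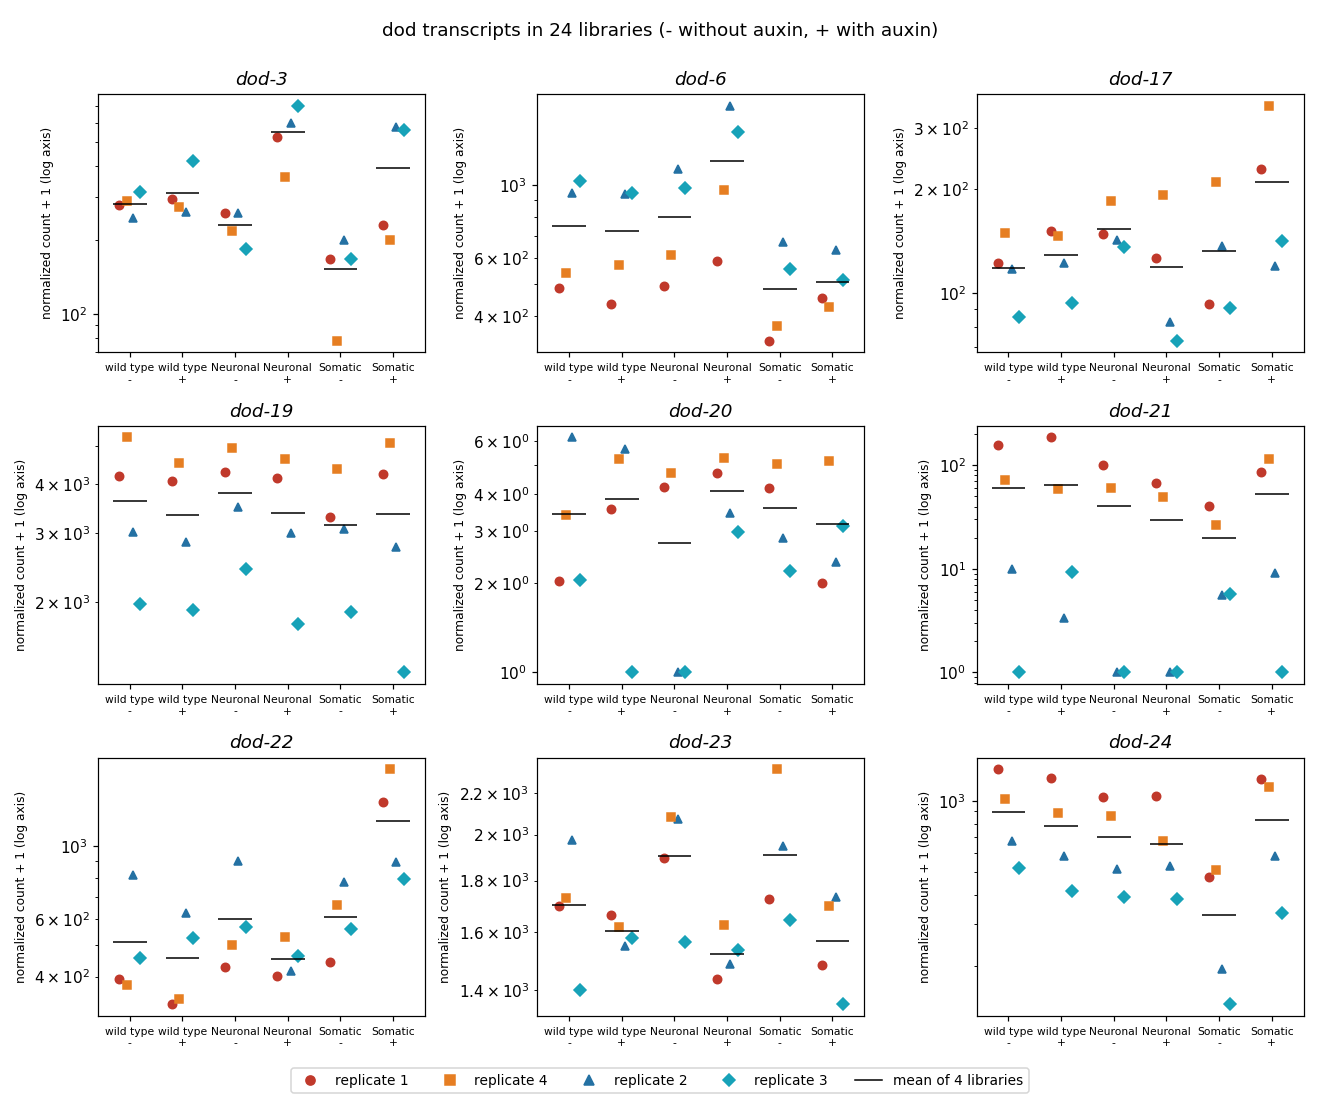
Normalized counts plus 1 (log axis) of the 9 dod genes in each library, by strain without (-) and with (+) auxin. Red and orange symbols are replicates 1 and 4, blue symbols are replicates 2 and 3, and lines are group means. For *dod-24* both sets fall in RAGA-1::AID Somatic without auxin, and for *dod-21* the blue symbols lie at 0 to 9.08 normalized counts while the red and orange ones lie at 25.7 to 184.7.

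Somatic AID of RAGA-1 was followed by higher *dod-3* and *dod-22*, the 2 of 8 tested dod genes called with auxin against no auxin. Neither was called in wild type animals on auxin. In this comparison 35.6% of all tested genes were called, and 16% were called higher, so 2 of 8 is not far from the share of genes in general. The libraries with and without auxin did not overlap for these 2 genes, as for 37.7% of all tested genes. The median log2 fold change of the 8 was 0.48, against 0.01 over all genes tested. Without auxin RAGA-1::AID Somatic animals had low *dod-24*, and with auxin its level was within or near the wild type range, a difference that limma called with the set term and not without it.

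The gene *dod-3* is of the group that rises when insulin signalling is low. RAGA-1::AID Somatic libraries 1 to 4 had 167, 198, 166 and 77.1 normalized counts without auxin. With auxin they had 229, 573, 559 and 199.7. The lowest library with auxin lay just above the highest without it, and replicates 2 and 3 with auxin were far above replicates 1 and 4. The log2 fold change was 1.27 (standard error 0.31, adjusted p = 0.00182 from limma), a 2.42-fold rise in means on the log scale. Replicates 1 and 4 alone gave 0.91, replicates 2 and 3 alone gave 1.64, and the set term gave an adjusted p of 0.000369 in limma. Without RAGA-1::AID Somatic no auxin replicate 4, at 77.1 normalized counts, the adjusted p from limma was 0.0103 and the call was lost.

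Neuronal AID was accompanied by a difference in *dod-3* of like size, which did not pass the threshold. RAGA-1::AID Neuronal libraries had 257, 257, 183 and 218 normalized counts of *dod-3* without auxin. With auxin they had 526, 597, 702 and 361, so every library with auxin lay above every one without it. The libraries of 10.8% of all tested genes did not overlap in this comparison, and *dod-3* was 1 such gene of 8. The log2 fold change was 1.23 (standard error 0.31, adjusted p = 0.0418 from limma) and, with the set term, the adjusted p from limma was 0.0104. DESeq2 on the recovered reads gave an adjusted p of 0.00681 and called it, and limma with the replicate block also called it. Within replicates 1 and 4 the log2 fold change was 0.88, and within replicates 2 and 3 it was 1.57.

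The responses of *dod-3* in the 2 AID strains were not shown to differ, with a log2 difference of 0.05 (standard error 0.44, adjusted p = 0.954 from limma). Wild type libraries had 277, 245, 312 and 288 normalized counts of *dod-3* without auxin. With auxin they had 292, 260.1, 417 and 271, and the groups overlapped. The response was larger than that of wild type by a log2 difference of 1.15 in somatic AID (adjusted p = 0.0512 from limma) and 1.10 in neuronal AID (adjusted p = 0.658 from limma), neither past the threshold. The libraries of RAGA-1::AID Somatic without auxin were all below those of wild type without auxin, at -0.96 on the log2 scale (limma adjusted p = 0.272, or 0.101 with the set term). This comparison and the somatic auxin comparison share the RAGA-1::AID Somatic libraries without auxin.

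The gene *dod-24* encodes a CUB-like protein and is known to respond to bacterial infection. Wild type libraries had 1357, 676, 518 and 1019 normalized counts without auxin. With auxin they had 1242, 581, 414 and 884. RAGA-1::AID Neuronal libraries had 1035, 514, 391 and 856 without auxin and 1043, 527, 381 and 673 with auxin. In these 4 groups replicates 1 and 4 were high and replicates 2 and 3 low, with little difference between the groups.

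RAGA-1::AID Somatic animals without auxin stood apart, with 475, 192, 136 and 507 normalized counts of *dod-24*. All 4 were below the lowest wild type library without auxin, a separation that *dod-24* and *dod-3* showed among the 8 genes, against 4.15% of all tested genes. With auxin the same strain had 1237, 584, 332 and 1141, within or near the wild type range. The mean was 327 ± 190.5 without and 824 ± 436 with auxin (SD, n = 4).

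The log2 fold change of *dod-24* with auxin in RAGA-1::AID Somatic was 1.36 (standard error 0.48, adjusted p = 0.0235 from limma), not called. Without RAGA-1::AID Somatic auxin replicate 3 it was 1.73 with an adjusted p of 0.00595 in limma, and called. Within replicates 1 and 4 the log2 fold change was 1.27, and within replicates 2 and 3 it was 1.44. In both sets the libraries with auxin were above those without it. With the set term the standard error was 0.20 and the adjusted p 8.48e-06 in limma, which brought the dod genes called to 3 of 8, against 38.9% of all tested genes under the same term. The estimated change was of like size in both sets, while the levels of the sets lay apart.

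Against wild type without auxin, *dod-24* in RAGA-1::AID Somatic had a log2 fold change of -1.56 (standard error 0.48, adjusted p = 0.243 from limma), which is a level 2.95-fold lower. Replicates 1 and 4 alone gave -1.26, and replicates 2 and 3 alone gave -1.87. With the set term the adjusted p was 7.1e-05 in limma, the single dod gene called there, against 0.38% of all tested genes. For the neuronal strain against wild type the value was -0.36 (adjusted p = 0.999 from limma). The neuronal strain carries the same tagged *raga-1* allele and had 391 to 1035 normalized counts without auxin, against 136 to 507 in RAGA-1::AID Somatic. The part of the allele was not tested. The low level may go with TIR1, degradation of RAGA-1 without auxin or another part of the RAGA-1::AID Somatic background. These cannot be told apart with these groups.

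The response of *dod-24* to auxin exceeded that in RAGA-1::AID Neuronal by a log2 difference of 1.44 (standard error 0.68, adjusted p = 0.133 from limma). It exceeded that in wild type by 1.58 (adjusted p = 0.084 from limma). With the set term these had adjusted p of 0.000741 and 0.000216 in limma and were called.

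The gene *dod-22* encodes another CUB-like protein. RAGA-1::AID Somatic libraries had 441, 777, 556 and 657 normalized counts of *dod-22* without auxin. With auxin they had 1355, 893, 792 and 1706. Replicates 1 and 4 rose most and replicates 2 and 3 ended a little above the highest library without auxin. The log2 fold change was 0.93 (standard error 0.28, adjusted p = 0.00857 from limma), with 1.495 from replicates 1 and 4 alone and 0.35 from replicates 2 and 3. The set term gave an adjusted p of 0.006 in limma.

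This call of *dod-22* lay near the threshold. With 1 library of the comparison left out, the log2 fold change stayed at 0.73 to 1.10. The call was lost without RAGA-1::AID Somatic no auxin replicate 1 (adjusted p = 0.0353 from limma), replicate 3 (0.0218) or replicate 4 (0.0129). It was also lost without the auxin replicate 1 (0.0297) or replicate 4 (0.0436).

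In the other strains *dod-22* was not called. RAGA-1::AID Neuronal libraries had 426, 895, 564 and 499 normalized counts without auxin and 401, 414, 461 and 525 with auxin, or -0.35 on the log2 scale (limma adjusted p = 0.609). Wild type libraries had 393, 812, 455 and 375 without auxin and 329, 624, 525 and 342 with auxin, or -0.14 on the log2 scale (limma adjusted p = 1). The difference of the somatic from the neuronal response was 1.28 on the log2 scale (standard error 0.39, adjusted p = 0.0225 from limma) and that from the wild type response 1.07 (adjusted p = 0.0438 from limma). Neither reached 0.01 in that fit or with the set term (0.0148 and 0.0323 in limma). With the replicate block limma called the difference from the neuronal response.

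Position on chromosome IV was examined because 4 dod genes lie there. From 20 kb before *dod-21* to 20 kb after *dod-17* the annotation has 25 protein-coding genes in 79.6 kb, of which 14 were tested. All 14 had a positive log2 fold change after somatic AID, with a median of 0.60, against a positive value in 51.1% of all tested genes, and 3 were called, all higher. Calls were higher for 16% of all tested genes, so 3 of 14 is not far from the general share. The median was also 0.60 for 9 tested intestine markers and 0.82 for 6 pharynx markers. Of the cell type lists only the 10 germline markers had a negative median, at -0.16. A positive shift is thus not particular to this stretch, and a part of position was not tested. The called genes of the stretch are given next. The 3 genes called were *dod-22* and its neighbours *F55G11.8* and *F55G11.2*, infection response genes whose 5′ ends lie 2.57 kb before and 3.92 kb after that of *dod-22*. The level of *F55G11.8* went from 216 ± 23.1 to 439 ± 106 normalized counts (SD, n = 4), 0.99 on the log2 scale with a limma adjusted p of 6.11e-06. That of *F55G11.2* went from 60.4 ± 18.2 to 157.8 ± 54.3 (1.37 on the log2 scale, limma adjusted p = 3.93e-05). After neuronal AID the median of the 14 was -0.36 and limma called none. The 14 genes share their libraries, and the groups of replicates 1 and 4 and of 2 and 3, so they are not independent of each other.

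**Figure D2:**
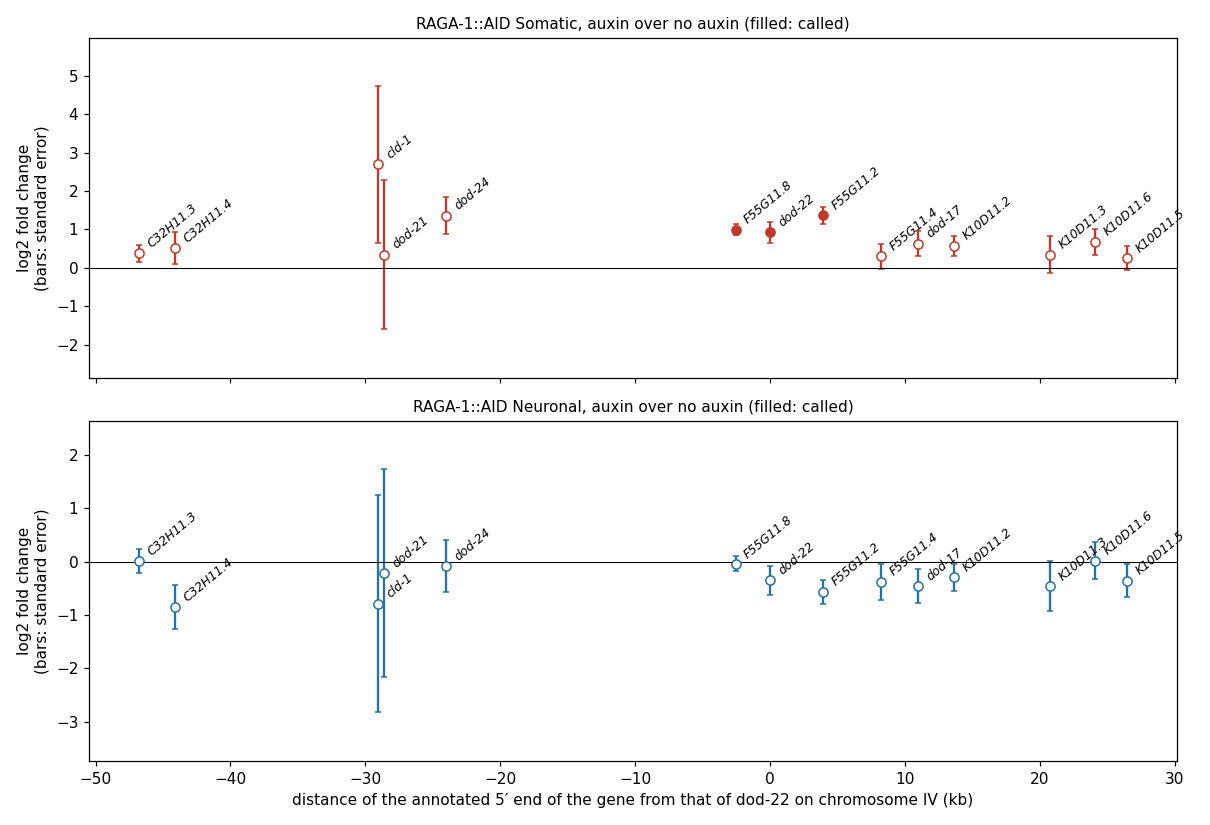
Log2 fold change with auxin (points, bars are standard errors) of the 14 tested genes around *dod-22* against the distance of their 5′ ends from that of *dod-22*, in kb, for RAGA-1::AID Somatic (top) and RAGA-1::AID Neuronal (bottom), with filled points for genes called. All 14 points lie above 0 in the somatic panel, and *dod-22*, *F55G11.8* and *F55G11.2* are filled.

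The CUB-like gene *dod-17* had 92.1, 136, 89.6 and 208 normalized counts in RAGA-1::AID Somatic without auxin. With auxin it had 228, 119, 141 and 348. Replicates 1 and 4 with auxin were the highest of all, but the groups overlapped, and the log2 fold change was 0.62 (adjusted p = 0.115 from limma). In RAGA-1::AID Neuronal it had 147, 141, 135 and 184 without auxin and 126, 81.6, 71.9 and 192 with auxin, or -0.46 on the log2 scale (limma adjusted p = 0.55). The difference between these responses was 1.09 (standard error 0.46, adjusted p = 0.089 from limma), of like size in replicates 1 and 4 (1.10) and in replicates 2 and 3 (1.07). With the replicate block limma called this difference.

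The level of *dod-23* varied little between libraries. Wild type libraries had 1696, 1976, 1401 and 1729 normalized counts without auxin and 1662, 1549.8, 1579 and 1617 with auxin. RAGA-1::AID Somatic libraries had 1724, 1948, 1645 and 2322 without auxin and 1482, 1734, 1355 and 1699 with auxin. Both AID strains were a little lower with auxin and overlapped with their controls. The log2 fold change was -0.28 in RAGA-1::AID Somatic (standard error 0.11, adjusted p = 0.037 from limma) and -0.32 in RAGA-1::AID Neuronal (standard error 0.11, adjusted p = 0.15 from limma), where the libraries had 1896, 2069.6, 1562 and 2081 without auxin and 1435, 1485, 1534 and 1626 with auxin. With the replicate block limma called the change in RAGA-1::AID Somatic.

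The gene *dod-6*, of the group that rises when insulin signalling is low, had 495, 1123, 982 and 611 normalized counts in RAGA-1::AID Neuronal without auxin. With auxin it had 589, 1745, 1449 and 966. Its highest 2 values of the study were replicates 2 and 3 of this group, yet the groups overlapped, and the log2 fold change was 0.53 (adjusted p = 0.513 from limma, 0.0473 with the set term). RAGA-1::AID Somatic libraries had 337, 671, 555 and 372 without auxin and 454, 634, 514 and 426 with auxin, and wild type libraries 436 to 1031 over both conditions. The log2 fold change in RAGA-1::AID Somatic was 0.11 (adjusted p = 0.815 from limma).

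The most abundant gene per kb, *dod-19*, was not called in any comparison. It had 1917 to 5266 normalized counts in the 8 wild type libraries, 1759 to 4944 in the 8 of RAGA-1::AID Neuronal and 1325 to 5108 in the 8 of RAGA-1::AID Somatic. Its log2 fold changes with auxin were -0.02 in RAGA-1::AID Somatic, -0.21 in RAGA-1::AID Neuronal and -0.10 in wild type, with adjusted p from limma of 0.973, 0.866 and 1. The standard error of 0.40 leaves room for changes of moderate size in either direction.

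**Figure D3:**
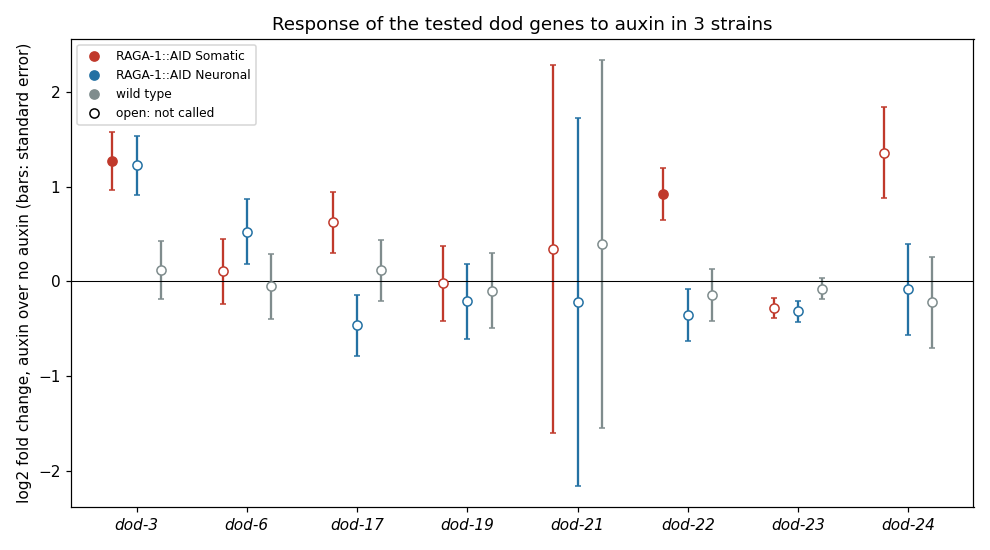
Log2 fold change with auxin against no auxin of the 8 tested dod genes in RAGA-1::AID Somatic (red), RAGA-1::AID Neuronal (blue) and wild type (grey), with bars for the standard error and filled points for genes called. Only *dod-3* and *dod-22* in RAGA-1::AID Somatic are filled, at 1.27 and 0.93, and the bars of *dod-21* are the widest, with a standard error of 1.94.

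After neuronal AID limma called 0 of 8 dod genes, against 0.441% of all tested genes, with 2 of the 8 at an unadjusted p under 0.05. edgeR called 0 and DESeq2 called 1, *dod-3*, which limma with the replicate block also called. Over all genes edgeR called 77, DESeq2 220 and limma with the replicate block 231, against 58 in the main fit. Under the set term 0 of 8 were called, against 1.14% of all tested genes. In wild type animals on auxin 0 of 8 were called and 0% of all genes, with 0 of 8 at an unadjusted p under 0.05, and 0% under the set term. edgeR and DESeq2 also called 0 of the dod genes there, and 0 and 1 of all genes. The medians of the 8 log2 fold changes were -0.21 after neuronal AID and -0.06 in wild type.

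Between strains without auxin limma called 0 of 8 dod genes in RAGA-1::AID Somatic (0.213% of all genes, 2 of 8 at an unadjusted p under 0.05). It called 0 of 8 in RAGA-1::AID Neuronal (0.0076% of all genes with or without the set term, 0 of 8 at an unadjusted p under 0.05). Of the responses compared between strains, limma called 0 of 8 for somatic minus neuronal (11.23% of all genes, 3 of 8 at an unadjusted p under 0.05). It called 0 of 8 for somatic minus wild type (16.8%, 3 of 8) and 0 of 8 for neuronal minus wild type (0.0152%, 1 of 8). With the set term *dod-24* was the 1 gene called in each of the first 2, against 15.1% and 21% of all genes, and none in the third, against 0.0456%. In these 5 comparisons edgeR and DESeq2 called 0 of the dod genes. Over all genes edgeR called 28 and DESeq2 49 for RAGA-1::AID Somatic against wild type without auxin. Each called 1 for RAGA-1::AID Neuronal against wild type, and they called 1354 and 1817 for somatic minus neuronal. Calls with the replicate block are given at the end.

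Several dod genes differed between the replicate sets. In 6 of 6 groups *dod-19*, *dod-21* and *dod-24* were higher in both replicates 1 and 4 than in replicates 2 and 3. The mean ratio was 1.86-fold for *dod-19* and 2.27-fold for *dod-24*. The opposite held for *dod-6*, which was 1.79-fold higher in replicates 2 and 3 and separated in 6 of 6 groups. With *dod-17*, higher in replicates 1 and 4 in 5 of 6 groups, 4 genes of the class known to fall with low insulin signalling and *dod-6* of the class known to rise lay on opposite sides. The sets of *dod-22* were apart in 3 groups with replicates 2 and 3 higher and in 1 group with replicates 1 and 4 higher, and those of *dod-23* in 1 group.

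The largest such difference was that of *dod-21*. Wild type libraries had 155, 9.08, 0 and 71.7 normalized counts without auxin and 185, 2.32, 8.28 and 58.4 with auxin. RAGA-1::AID Neuronal libraries had 100.1, 0, 0 and 58.7 without auxin and 66.5, 0, 0 and 47.9 with auxin. RAGA-1::AID Somatic libraries had 39.7, 4.61, 4.78 and 25.7 without auxin and 84.7, 8.13, 0 and 115 with auxin. Every library of replicates 1 and 4 had at least 25.7 and no library of replicates 2 and 3 had more than 9.08, and 6 of the latter were at 0, where 0 reads allows 2.45 to 3.31 normalized counts. Its log2 fold changes with auxin, 0.34 in RAGA-1::AID Somatic and -0.22 in RAGA-1::AID Neuronal, had a standard error of 1.94 and say little. The neighbouring gene *cld-1*, whose 5′ end is 0.47 kb from that of *dod-21* on the other strand, was also higher in replicates 1 and 4 in 6 of 6 groups.

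**Figure D4:**
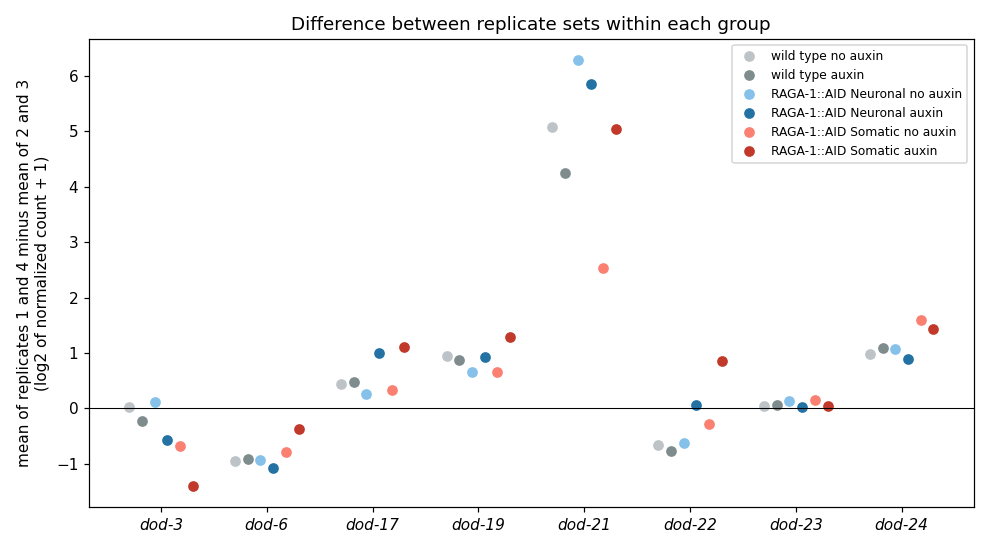
Mean of replicates 1 and 4 minus mean of replicates 2 and 3 (log2 of normalized count plus 1) within each of 6 groups (points) for the 8 tested dod genes. All 6 points of *dod-19*, *dod-21* and *dod-24* lie above 0, those of *dod-6* below 0, and those of *dod-23* between 0.02 and 0.16.

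After removal of the group means, the deviations of the 24 libraries were compared between genes as a description. The libraries share their replicate sets, so a high correlation can come from the sets alone. Pearson's r was 0.88 between *dod-19* and *dod-24*, 0.87 between *dod-21* and *dod-24* and -0.87 between *dod-6* and *dod-21*. Between *dod-3* and *dod-17* it was -0.82. After each replicate set was centred as well, r between *dod-19* and *dod-24* was 0.63, between *dod-21* and *dod-24* 0.56, between *dod-6* and *dod-21* -0.16 and between *dod-3* and *dod-17* -0.74. The pair *dod-22* and *dod-23* went the other way, with r of 0.36 before and 0.93 after.

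Over the same 24 deviations, the gene most like *dod-19* was *irg-8*, its neighbour, at r = 0.99. For *dod-24* it was *irg-7*, an infection response gene, at r = 0.97, and for *dod-21* it was the intestinal actin gene *act-5* at r = 0.94. The gene most like *dod-17* was *acs-1* at r = 0.95, a fatty acyl-CoA synthetase gene, and the one most like *dod-6* was *F56D6.8* at r = 0.94. For *dod-3* it was *pcyt-2.1* at r = 0.86, for *dod-22* *F49F1.7* at r = 0.85 and for *dod-23* the p38 kinase gene *pmk-1* at r = 0.78. Each is the highest r over all tested genes, so high values arise by selection. With each replicate set centred as well, r was 0.97 for *irg-8*, 0.79 for *irg-7*, 0.66 for *act-5* and 0.87 for *acs-1*. It was 0.82 for *F56D6.8*, 0.70 for *pcyt-2.1*, 0.81 for *F49F1.7* and 0.78 for *pmk-1*. These centred values too rest on fewer independent values than 24.

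Other genes of the insulin pathway were counted beside the dod genes. After somatic AID, 5 of 19 tested DAF-16 targets known to rise with low insulin signalling were called higher and 1 was called lower (median log2 fold change 0.18), 6 of 19 against 35.6% of all tested genes called. Those higher were *ctl-2*, *lys-8*, *icl-1*, *lea-1* and *nnt-1*, with log2 fold changes of 0.45 to 0.98, and the lower one was *sod-3*, a superoxide dismutase gene (-0.95, adjusted p = 0.00379 from limma). Of 4 tested genes known to fall, *ins-7*, *vit-2* and *vit-5* were called higher, at 1.30, 1.00 and 0.84. After neuronal AID, *lea-1* and *nnt-1* of the 19 were called higher, at 1.49 and 1.56 (adjusted p = 7.4e-07 and 0.000588 from limma), with a median of 0.85 for the list, and none of the 4 was called. Over all tested genes 0.441% were called there. With the set term 8 of the 19 were called higher, against 1.14% of all tested genes called. The transcription factor gene *daf-16* itself had log2 fold changes of -0.03 after somatic AID and -0.03 after neuronal AID (adjusted p = 0.519 and 0.77 from limma).

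Infection response genes, the other setting in which *dod-22* and *dod-24* are known, had 10 of 22 called higher and none lower after somatic AID, with a median of 0.51, and none called after neuronal AID. Over all tested genes 16% were called higher after somatic AID and 0.441% were called after neuronal AID. The list holds *F55G11.2*, *F55G11.8* and 4 other genes of the same stretch on chromosome IV. Of the p38 kinase cascade, 2 of 6 were higher and *pmk-1* was lower after somatic AID.

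Cell type markers moved in the same comparison. Of the intestine markers 6 of 9 were called higher after somatic AID (median 0.60), and their summed level was 48481 to 62976 normalized counts with auxin against 28675 to 35853 without. Pharynx markers were called higher in 6 of 6 and body wall muscle markers in 5 of 7 (the other 2 were called lower). Neuron markers were called higher in 3 of 9 and lower in 1, and epidermis markers higher in 1 of 5. Germline markers were called lower in 8 of 10, with summed levels of 141211 to 149468 with auxin against 155623 to 159268 without. Over all tested genes 35.6% were called after somatic AID and 16% were called higher. After neuronal AID 1 of 9 intestine markers was called higher and no marker of the other lists was called, against 0.441% of all tested genes called. The part of these markers in the results for *dod-3*, *dod-22* and *dod-24* was not tested. Without auxin, where *dod-24* was low in RAGA-1::AID Somatic, limma called none of the 9 intestine markers against wild type animals, whose summed level was 30025 to 39712. In that comparison limma called 0.213% of all tested genes and did not call *dod-24*, so the count of markers says little.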

How the data were processed

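RNA-seq of whole day 3 adults was analysed for 24 libraries in 6 groups, assigned from the sample labels. Per the labels and methods, the authors made strand-specific poly(A) libraries, ran FastQC 0.11.5, MultiQC and STAR 2.7.0 as quality checks, estimated transcript abundance for WBcel235 in Salmon 1.4.0, and normalized gene counts with DESeq2 1.34.0 under R 4.1.2. Each deposited value is a signal, namely the count of a gene over the size factor of its library. Dividing by the worth of 1 read gave whole numbers for 100% of values (within 0.01), and these recovered reads gave the depth (16982857 to 41671106 per library). Intervals for 0 reads cover counting error only.

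The 13150 genes that reached 10 normalized counts in 4 or more libraries were fitted with limma 3.58.1 in R 4.3.3, with an intensity trend and a mean for each group, on log2 normalized counts with a pseudocount of 1. Positions came from the Ensembl annotation of WBcel235, and 19793 IDs were matched to symbols. The text names all 9 dod genes, the genes most like each, tested genes near them and listed pathway genes. The members and lists were chosen with earlier results of these data known. The fit was also run on simulated counts with the same dispersion for every gene and no difference between replicate sets. That run does not show how the fit behaves for genes that differ between the sets.

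Alternatives were pseudocounts of 0.5 and 4, no filter or 50 normalized counts in 4 libraries, TMM, quantile normalization, only the libraries compared, DESeq2 1.42.0 and the quasi-likelihood test of edgeR 4.0.16 on reads recovered from the table, a replicate block, an adjusted p of 0.05 and each library left out. A term for replicates 1 and 4 against 2 and 3 was chosen after seeing the data. Promoter and protein sequences were not analysed here. Plots used matplotlib 3.10.9 with numpy 2.4.6 in Python 3.11.15.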

Additional observations from a re-analysis of the deposited data

Results flagged for a closer look

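The response of *dod-24* to auxin in RAGA-1::AID Somatic differed from that in RAGA-1::AID Neuronal by 1.44 on the log2 scale (adjusted p = 0.000741 from limma with the term for replicates 1 and 4 against 2 and 3). It differed from that in wild type by 1.58 (adjusted p = 0.000216 in the same fit). Both passed the threshold with that term, which was chosen after seeing the data, and neither did without it. In the 54 sets of 4 libraries formed by 9 dod genes and 6 groups, 0 had a library far from the other 3 by Dixon's criterion. Chance gives about 1 in 20 for independent sets, but these sets share libraries. Where replicates 1 and 4 lie apart from 2 and 3, the criterion can hardly flag a library, so the 0 says little.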

How the results depend on the processing

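Over the 29 log2 fold changes of single dod genes that exceeded their standard error, 734 values were computed under the alternatives. None changed direction, which this choice of larger changes made likely. Of the values, 697 kept their side of the threshold, 13 lost a call and 24 gained one. Smaller changes were left out. Those after somatic AID differed in sign between replicates 1 and 4 and replicates 2 and 3. They were 0.31 and -0.10 for *dod-6*, 0.29 and -0.33 for *dod-19*, and 1.60 and -0.91 for *dod-21*. After somatic AID, where 2 dod genes were called, 1 was called with no filter on low values (*dod-3*), 0 with quantile normalization and 0 with only the libraries compared. Over all genes these settings called 4440, 3725 and 2816, against 4680 in the main fit. At an adjusted p of 0.05, 4 were called, against 6362 of all 13150 tested genes. With 1 library left out, 0 to 3 were called. The fits within replicates 1 and 4 called *dod-22* and *dod-24*, and those within replicates 2 and 3 *dod-3* and *dod-24*. Over all genes they called 3139 and 1607. After neuronal AID, where 0 were called, DESeq2 called 1 and an adjusted p of 0.05 gave 1, *dod-3* in both. Over all genes these called 220 and 226. For the somatic minus neuronal response, 0 became 1 at an adjusted p of 0.05 and 1 within replicates 1 and 4 (*dod-22*), and 1 with the term for the replicate sets (*dod-24*). Over all genes 3001, 434 and 1983 were called in these settings. For somatic minus wild type, 0 became 1 at an adjusted p of 0.05 (*dod-22*), 2 within replicates 1 and 4 (*dod-22* and *dod-24*) and 1 with that term (*dod-24*). For RAGA-1::AID Somatic against wild type without auxin, that term gave 1 (*dod-24*). The cause of these changes was not tested.

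The replicate numbers were not taken to pair the libraries. Same-numbered libraries with and without auxin had correlations of their deviations of 0.0786 to 0.238 in RAGA-1::AID Somatic, 0.0925 to 0.339 in RAGA-1::AID Neuronal and 0.103 to 0.231 in wild type. Of the 8 libraries of each strain, 8, 7 and 8 correlated best with their own number. The main fit leaves out this likeness, and some of its results below the threshold depend on that. With the replicate block, 4 dod genes were called after somatic AID (*dod-3*, *dod-22*, *dod-23* and *dod-24*), 1 after neuronal AID (*dod-3*) and 1 in RAGA-1::AID Somatic against wild type without auxin (*dod-24*). The block gave 3 for somatic minus neuronal (*dod-17*, *dod-22* and *dod-24*) and 1 for somatic minus wild type (*dod-24*). Of all 13150 tested genes the block called 5326 after somatic AID and 231 after neuronal AID. It called 78 for RAGA-1::AID Somatic against wild type without auxin and 2251 for somatic minus neuronal. For somatic minus wild type, calls over all genes were not counted with the block.

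Depth limits *dod-20* and *dod-21*, which had few or 0 reads in many libraries. *dod-20* was not tested.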
